A study of Rattus norvegicus with 6 samples.

Results

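The high-affinity IgE receptor and the low-affinity IgG receptors are described here through 6 genes, Fcer1a, Ms4a2, Fcer1g, Fcgr2a, Fcgr2b and Fcgr3a, taken by their symbols from a table of 22601 rat genes. Each symbol had 1 row. In the series, 3 libraries came from RBL-2H3 cells exposed for 6 h to 10 µM PIO, which the series names as a PPARγ agonist, and 3 control libraries from cells without it. All 6 carry the genotype label WT. RBL-2H3 derives from a basophilic leukemia of the rat and is widely used to study IgE-driven degranulation. It is a tumour line, and no vehicle is recorded for the control libraries, so a vehicle effect cannot be told apart from PIO. The sample labels also give no time for the control libraries, so an effect of time in culture cannot be told apart either. The labels do not say whether replicates were separate cultures, so the spread behind each p-value is that of these libraries and may be technical.

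The IgE receptor of rodents is a complex of an alpha chain (Fcer1a) that binds IgE, a beta chain (Ms4a2) that spans the membrane and amplifies the signal, and a pair of gamma chains (Fcer1g) that carry ITAM motifs and start the signal through the kinases Lyn and Syk. The gamma chain also serves the activating IgG receptors, which bind immune complexes and cannot signal without it. The inhibitory IgG receptor Fcgr2b carries an ITIM motif and, when it is joined to the IgE receptor by immune complexes, recruits the phosphatase SHIP1 (Inpp5d) and dampens mast cell degranulation. The names of the rat IgG receptors do not follow the human ones. The RefSeq gene table lists the older symbol Fcgr3 for rat Fcgr2a and the older symbol Fcgr4 for rat Fcgr3a.

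Values are FPKM, reads per kilobase of gene length scaled by the size of the library, as deposited by the authors. The FPKM values resolved into whole reads, and library totals were 14048202 to 14322720 reads with PIO and 14105533 to 15084729 reads in control. Mast cell and basophil markers were present, with 12 of 15 at a mean of at least 1 FPKM and summed levels of 3491 to 3588 FPKM with PIO and 3470 to 3644 FPKM in control. The stem cell factor receptor gene Kit averaged 286 FPKM with PIO and 320.3 FPKM in control, and the histidine decarboxylase gene Hdc 296 FPKM with PIO and 298 FPKM in control, while the tryptase gene Tpsab1 and the protease gene Mcpt1 were listed at 0. Of 11 macrophage markers, 1 (Cd68) reached 1 FPKM, and the sum was 1.77 to 2.14 FPKM with PIO and 1.69 to 1.98 FPKM in control. The macrophage genes Cd14, Marco, C1qa and C1qb were listed at 0. A listed 0 need not mean that a gene was silent, because Polr2h, a subunit of RNA polymerases that every cell uses, was also listed at 0 in all 6 libraries.

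Promoter sequences are shown for the members found in the RefSeq promoter table (3 of 6, build GRCr8). They set the abundant IgE-binding chain Fcer1a beside its IgG-binding relatives Fcgr2a, at a low level, and Fcgr3a, nearly silent. Fcgr2b, an IgG receptor with higher FPKM than Fcer1a, was not in that table. Each window runs from 250 bases before to 50 bases after an annotated start, 5′ to 3′ on the strand of the gene, and the strand given with the coordinates is that of the chromosome. Capitals mark the letters GATAA, the core recognised by GATA factors, and GAGGAA, a PU.1 site, on either strand, so a match on the strand opposite the gene is printed as its reverse complement. GATA factors and PU.1 are known from human and mouse work to act on the Fcer1a promoter.
Fcer1a (chr13:88224630-88224929, minus strand): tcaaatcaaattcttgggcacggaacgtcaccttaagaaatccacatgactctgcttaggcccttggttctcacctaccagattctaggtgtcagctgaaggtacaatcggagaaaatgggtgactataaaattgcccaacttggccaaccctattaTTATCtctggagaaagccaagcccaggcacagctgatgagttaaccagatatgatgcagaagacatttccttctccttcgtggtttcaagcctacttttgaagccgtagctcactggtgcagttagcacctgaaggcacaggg
Fcgr2a, first start (chr13:85828636-85828935, minus strand): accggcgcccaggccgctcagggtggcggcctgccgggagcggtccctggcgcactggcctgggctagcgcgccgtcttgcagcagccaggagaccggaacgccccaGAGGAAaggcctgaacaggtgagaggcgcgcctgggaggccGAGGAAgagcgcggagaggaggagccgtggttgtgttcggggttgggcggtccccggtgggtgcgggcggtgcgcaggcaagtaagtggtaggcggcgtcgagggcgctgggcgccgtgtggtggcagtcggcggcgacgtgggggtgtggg
Fcgr2a, second start (chr13:85826683-85826982, minus strand): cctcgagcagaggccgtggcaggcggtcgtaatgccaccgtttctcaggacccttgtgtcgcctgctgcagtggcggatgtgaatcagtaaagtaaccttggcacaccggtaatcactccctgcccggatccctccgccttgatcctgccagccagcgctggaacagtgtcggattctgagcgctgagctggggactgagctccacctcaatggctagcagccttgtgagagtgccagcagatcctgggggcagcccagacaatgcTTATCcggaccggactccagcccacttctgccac
Fcgr3a (chr13:85782386-85782685, plus strand): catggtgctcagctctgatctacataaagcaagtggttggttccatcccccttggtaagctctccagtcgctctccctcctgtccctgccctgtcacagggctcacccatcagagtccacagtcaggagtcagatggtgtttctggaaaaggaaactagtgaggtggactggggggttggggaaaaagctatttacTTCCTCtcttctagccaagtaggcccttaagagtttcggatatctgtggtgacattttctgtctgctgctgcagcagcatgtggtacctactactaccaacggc

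The Fcer1a window held 1 GATAA match, on the strand opposite the gene, 93 bases before the start, and no GAGGAA match. The first Fcgr2a window held GAGGAA matches on the gene's own strand at 143 and 102 bases before the start, and the second held 1 GATAA match on the opposite strand 16 bases after the start. The Fcgr3a window held 1 GAGGAA match on the opposite strand, 54 bases before the start. Of 33469 promoter windows of the same length, 26.5% held GATAA and 27.6% held GAGGAA on either strand, so matches of this kind are common. The core site of nuclear receptors, AGGTCA, was in 16.2% of all windows and in none of these 4. DR1 is a direct repeat of AGGTCA with 1 base between and the form bound by pairs of PPAR and RXR. It was in 18 of the 33469 windows (0.0538%). Its absence from these 4 follows from that of AGGTCA, and a form this rare would seldom be met in 4 windows. These matches are descriptions of letters in a window, and no binding was measured.

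The 6 genes spanned a wide range of transcript levels. On the FPKM scale, which is per gene length, Ms4a2 ranked 94 among all genes of the table by mean level, Fcer1g 123, Fcgr2b 384, Fcer1a 587, Fcgr2a 6077 and Fcgr3a 10949. The ranges over the 6 libraries did not overlap between any neighbours in this order. Mean Ms4a2 was 1.43 times mean Fcer1g, Fcer1g 2.99 times Fcgr2b, and Fcgr2b 1.44 times Fcer1a, whereas Fcer1a was 13.3 times Fcgr2a and Fcgr2a 41.9 times Fcgr3a. Per gene length, transcripts of the inhibitory IgG receptor were thus more abundant than those of the IgE-binding chain. This order rests on recovered lengths of 3370 bases for Fcer1a, 1559 for Fcgr2b and 633 for Fcer1g. In reads not divided by length, Fcer1a was the highest of these 3. Its reads summed to 19404 with PIO and 20533 in control. Those of Fcer1g summed to 16554 with PIO and 15655 in control, and those of Fcgr2b to 12560 with PIO and 13970 in control. Ms4a2 made up 46.4% of the summed FPKM of the 6 genes with PIO and 48.5% in control, and Fcer1g 34.7% with PIO and 31.6% in control.

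**Figure D1:**
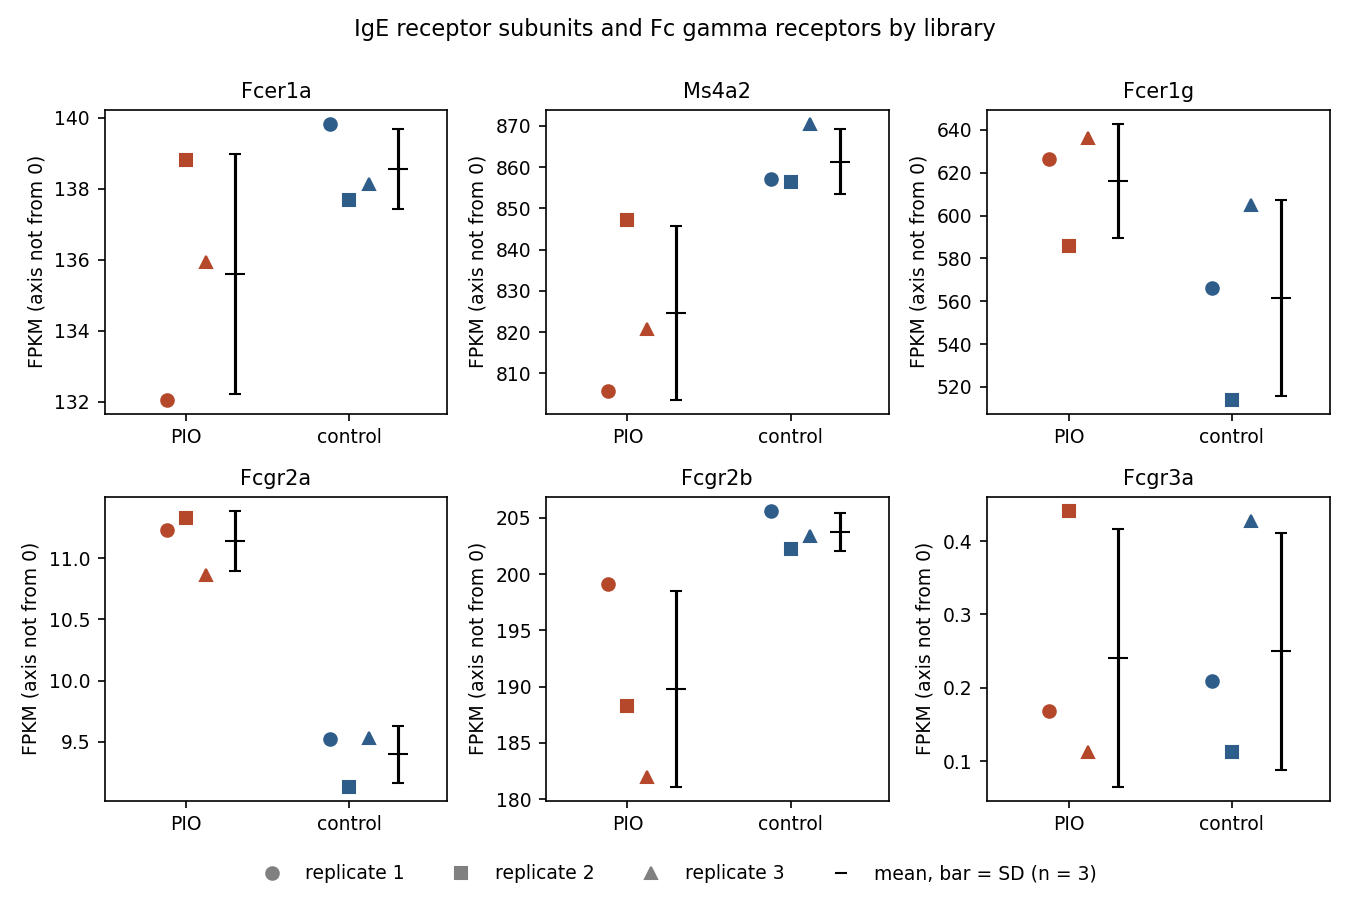
FPKM of the 6 genes in each library, with PIO at the left and control at the right of each panel, 1 symbol per replicate, and the mean with SD of 3 libraries as a black bar. The axes do not start at 0, and the PIO and control points are apart for Ms4a2, Fcgr2a and Fcgr2b and mixed for Fcer1a, Fcer1g and Fcgr3a.

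Fcer1a (GeneID 25047), the IgE-binding chain, had 132, 139 and 136 FPKM in PIO replicates 1 to 3, against 139.8, 138 and 138 FPKM in control replicates 1 to 3. PIO replicate 2 lay within the control range, so the groups overlapped. The mean was 136 ± 3.39 FPKM with PIO and 139 ± 1.13 FPKM in control (SD, n = 3 each), with 6252 to 6700 reads per library with PIO and 6545 to 7108 in control. The log2 fold change on log2(FPKM + 0.5) was -0.03, with a 95% confidence interval of -0.11 to 0.04 and an adjusted p of 0.702 by limma with Benjamini-Hochberg adjustment over 10410 genes. It was -0.06 under TPM scaling, -0.05 under quantile normalization and without PIO replicate 2, and -0.01 without PIO replicate 1. In bulk RNA, fewer cells with a transcript and less of it per cell cannot be told apart.

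Ms4a2 (GeneID 25316), the beta chain, had 806, 847 and 821 FPKM in PIO replicates 1 to 3, against 857, 856 and 871 FPKM in control replicates 1 to 3. Every PIO value lay below every control value, and the gap between the groups was smaller than the range within the PIO libraries. The mean was 825 ± 21.0 FPKM with PIO and 861 ± 7.95 FPKM in control (SD, n = 3 each), and the mean with PIO was lower by a relative difference of -4.26%. The log2 fold change was -0.06, with a 95% confidence interval of -0.14 to 0.01, and it did not pass (limma adjusted p = 0.447). Under quantile normalization it was -0.12 (limma adjusted p = 0.253).

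Fcer1g (GeneID 25441), the shared gamma chain, had 627, 586 and 636 FPKM in PIO replicates 1 to 3, against 566, 514 and 605 FPKM in control replicates 1 to 3. Control replicate 3 lay above PIO replicate 2, so the groups overlapped, and the SD was 4.34% of the mean with PIO and 8.14% in control, the widest spread among control libraries of the 5 genes tested. The mean was 616 ± 26.7 FPKM with PIO and 562 ± 45.7 FPKM in control (SD, n = 3 each), a relative difference of 9.70%. The library with the fewest reads of Fcer1g held 4589, for which counting error is 1.48%. The log2 fold change was 0.14 (95% confidence interval -0.004 to 0.28, limma adjusted p = 0.411). It was 0.073 without control replicate 2, 0.064 under quantile normalization and 0.074 after a correction for gene length. Fcer1g is short (633 bases), and the 424 tested genes of 500 to 800 bases had a median log2 fold change of 0.06, with 73.3% of them higher with PIO, against a median of 0.009 over all genes tested.

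Fcgr2a (GeneID 116591), whose older symbols place it with the activating receptors that use the gamma chain, had 11.2, 11.3 and 10.9 FPKM in PIO replicates 1 to 3, against 9.53, 9.13 and 9.53 FPKM in control replicates 1 to 3. All 3 PIO values lay above all 3 control values, and the gap between the groups was wider than the range within either. The mean was 11.1 ± 0.247 FPKM with PIO and 9.40 ± 0.229 FPKM in control (SD, n = 3 each), a relative difference of 18.5%, with 1175 reads in all with PIO and 1027 in control. The log2 fold change of 0.23 (95% confidence interval 0.12 to 0.35) was the farthest from 0 of the 5 genes tested. It had a limma p of 0.00165 before adjustment and did not pass over all genes (limma adjusted p = 0.27). Across the alternatives run, the log2 fold change stayed between 0.19 and 0.25 and the limma adjusted p between 0.151 and 0.646.

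Annotated copies lie beside Fcgr2a, and the sources used here do not say how reads that fit more than 1 copy were counted. RefSeq places a related gene, Fcgr2al1 (LOC498276 in the deposited table), and a transcribed pseudogene, Fcgr2a-ps1 (LOC103693683), next to Fcgr2a on chromosome 13. Fcgr2al1 had 2, 8 and 1 reads in PIO replicates 1 to 3 and 0, 2 and 0 reads in control replicates 1 to 3. Fcgr2a-ps1 had 9, 17 and 13 reads with PIO and 17, 6 and 35 reads in control. With the FPKM of both copies added, Fcgr2a stood at 11.9, 12.8 and 11.7 FPKM in PIO replicates 1 to 3, against 10.5, 9.61 and 11.6 FPKM in control replicates 1 to 3. The groups still did not overlap, although the lowest PIO value came close to control replicate 3, and the log2 fold change was 0.19 (limma adjusted p = 0.375). Each FPKM in this sum rests on its own recovered length, 1423 bases for Fcgr2al1, 1138 for Fcgr2a-ps1 and 2484 for Fcgr2a. Reads of the copies thus weigh more in the sum than the same reads placed on Fcgr2a would, and a fit on pooled reads was not run.

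Fcgr2b (GeneID 289211), the inhibitory receptor, had 199, 188 and 182 FPKM in PIO replicates 1 to 3, against 206, 202 and 203 FPKM in control replicates 1 to 3. Every PIO value lay below every control value, and PIO replicate 1 was the nearest to control. The mean was 189.8 ± 8.69 FPKM with PIO and 204 ± 1.72 FPKM in control (SD, n = 3 each), a relative difference of -6.86%. The log2 fold change was -0.10 (95% confidence interval -0.19 to -0.01), with a limma p of 0.0282 before adjustment and an adjusted p of 0.371. It lay between -0.14 and -0.07 across the alternatives run.

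Fcgr3a (GeneID 304966), the relative known in mouse as Fcgr4, was close to absent, with 3, 8 and 2 reads in PIO replicates 1 to 3 and 4, 2 and 8 reads in control replicates 1 to 3. These gave 0.169, 0.441 and 0.112 FPKM with PIO and 0.209, 0.112 and 0.428 FPKM in control. The groups overlapped, the sums were 13 reads with PIO and 14 in control, and the gene was below the minimum mean of 0.5 FPKM for testing. At this depth a modest difference in Fcgr3a could not be told from counting error, and no detection limit was computed.

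None of the 5 genes tested passed an adjusted p of 0.05. Over all 10410 genes tested, 4 passed (0.0384%), all higher with PIO. The PIO and control values did not overlap for 3 of the 5, against 18.5% of all genes tested. Of these 3, Fcgr2a was higher with PIO, and Ms4a2 and Fcgr2b were lower. Of all 10410 genes tested, 10.5% had groups apart and higher with PIO, and 8.09% had groups apart and lower. An unadjusted limma p under 0.05 was found for 2 of the 5, against 12.5% of all genes tested. By fold change 2 of the 5 were higher with PIO and 3 lower. Their median log2 fold change was -0.03, against 0.009 over all genes tested. Separation of the groups thus occurred in many other genes of these libraries, and whether the 5 genes depart from that share was not tested.

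**Figure D2:**
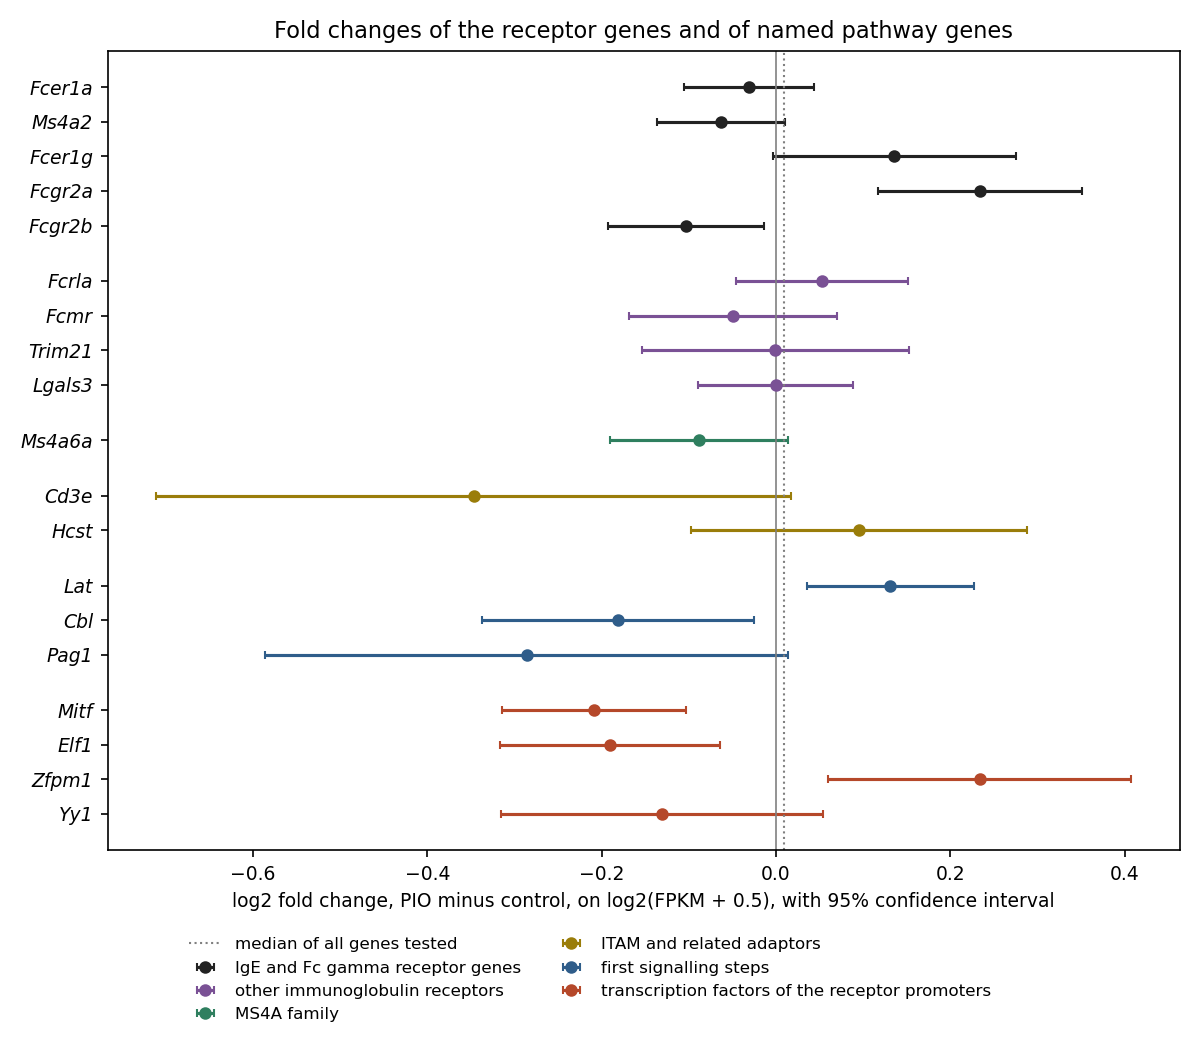
Log2 fold changes of PIO minus control on log2(FPKM + 0.5), with 95% confidence intervals from limma, for the 5 receptor genes tested and for named genes of the pathway lists. The solid line marks 0 and the dotted line the median of all genes tested, 0.009. Fcgr2a lies at 0.23 and Fcgr2b at -0.10, and no gene shown passed the adjusted threshold.

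Ratios of FPKM within a library cancel the scaling of that library and bear on how the transcripts of the subunits stood to each other. They are ratios of transcripts, and say nothing of protein. The Ms4a2 to Fcer1a ratio was the steadiest, at 6.10, 6.10 and 6.04 in PIO replicates 1 to 3, against 6.13, 6.22 and 6.30 in control replicates 1 to 3. The groups did not overlap, but the distance was small, with means of 6.08 ± 0.0375 with PIO and 6.22 ± 0.0861 in control (SD, n = 3 each), a difference of -0.03 in log2. The 3 against 3 exact permutation test (two-sided) gave p = 0.1, which is the smallest p this design allows.

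The gamma chain varied more against its partners. The Fcer1g to Fcer1a ratio was 4.74, 4.22 and 4.68 in PIO replicates 1 to 3, against 4.05, 3.73 and 4.38 in control replicates 1 to 3. The Fcer1g to Ms4a2 ratio was 0.778, 0.691 and 0.775 in PIO replicates 1 to 3, against 0.660, 0.600 and 0.695 in control replicates 1 to 3. In both, PIO replicate 2 lay below control replicate 3, so the groups overlapped. The log2 differences were 0.17 and 0.20, each with p = 0.2 in the exact permutation test. Without control replicate 2 the difference for Fcer1g to Fcer1a was 0.11, as it was after the correction for gene length.

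Set against the ligand-binding chains among the 6 genes that pair with it, Fcer1g over the sum of Fcer1a, Fcgr2a and Fcgr3a was 4.20 ± 0.265 with PIO and 3.79 ± 0.294 in control (SD, n = 3 each; exact permutation p = 0.2, log2 difference 0.15). Without control replicate 2 this difference was 0.092. In each library there was thus more gamma chain transcript per length than transcript of these 3 chains, the lowest ratio being 3.50 in control replicate 2.

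Among the 6 ratios, the log2 differences farthest from 0 were those that set the sum of Fcgr2a and Fcgr3a against Fcgr2b and Fcer1a against that sum. The sum of Fcgr2a and Fcgr3a over the inhibitory Fcgr2b was 0.0573, 0.0625 and 0.0603 in PIO replicates 1 to 3, against 0.0474, 0.0457 and 0.0490 in control replicates 1 to 3. All PIO values lay above all control values. The means were 0.0600 ± 0.00263 with PIO and 0.0473 ± 0.00164 in control (SD, n = 3 each), a relative difference of 26.8% and a log2 difference of 0.34. The IgE-binding chain over the same activating sum, Fcer1a over Fcgr2a plus Fcgr3a, was 11.6, 11.8 and 12.4 in PIO replicates 1 to 3, against 14.4, 14.9 and 13.9 in control replicates 1 to 3, with a log2 difference of -0.27. Both had p = 0.1 in the exact permutation test, the smallest it can give, and after Benjamini-Hochberg adjustment over the 6 ratios the exact p was 0.2 for each ratio. The activating sum stayed far below Fcgr2b in both groups. Fcgr3a added only 0.241 FPKM with PIO and 0.250 FPKM in control to that sum, beside 11.1 and 9.40 FPKM of Fcgr2a. Both ratios therefore hold almost only Fcgr2a on that side, and neither is separate from the difference of Fcgr2a given above.

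**Figure D3:**
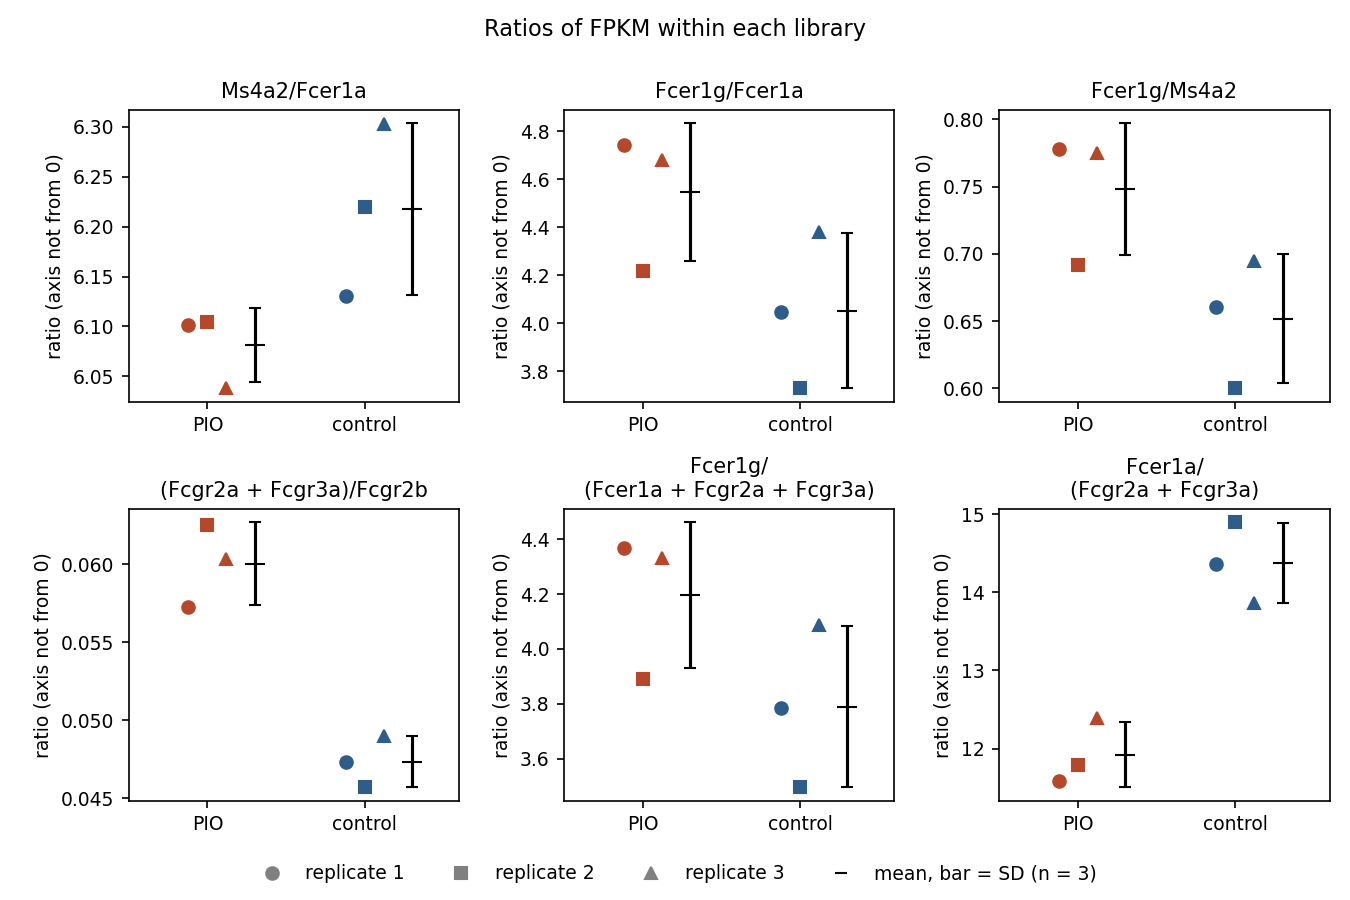
Ratios of FPKM within each library for the 6 ratios, with PIO at the left and control at the right, 1 symbol per replicate, and the mean with SD of 3 libraries as a black bar; the axes do not start at 0. The ratio of Fcgr2a plus Fcgr3a to Fcgr2b lies at 0.0573 to 0.0625 with PIO and 0.0457 to 0.0490 in control, while the PIO and control points of the ratios led by Fcer1g overlap.

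The genes whose pattern over the 6 libraries was most like each IgE receptor subunit were found by the root mean square difference of log2(FPKM + 0.5) after each gene's own mean was subtracted, over 6136 genes of at least 10 FPKM. For Fcer1a they were Itm2a, Rheb and Arf2, with differences of 0.012, 0.012 and 0.013. For Ms4a2 they were Dnajc3, Ppil4 and Nt5c3a, with 0.012, 0.014 and 0.015, and for Fcer1g they were Lyl1, Slc39a3 and Atp5sl, with 0.024, 0.025 and 0.031. These are the smallest differences of a search over 6136 genes, and some of the genes had few reads, such as Slc39a3 with 206 to 264 per library. Whether any match is closer than such a search gives by counting error alone was not tested, so no shared regulation is read from it.

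Fcgr2b, Fcgr3a, Fcgr2a and Fcer1g lie in this order in 1 stretch of chromosome 13 on the GRCr8 assembly, and Fcer1a lies elsewhere on that chromosome. Ms4a2 lies on chromosome 1. High and low levels lay side by side in the stretch. Fcrla, the neighbour of Fcgr2b that encodes an intracellular immunoglobulin-binding protein best known in B cells, averaged 495 ± 12.8 FPKM with PIO and 478 ± 24.1 FPKM in control (SD, n = 3 each; log2 fold change 0.05, limma adjusted p = 0.618). Fcrlb, beside it, had 17, 22 and 15 reads with PIO and 11, 12 and 10 reads in control, under the minimum for testing. Pcp4l1 and Apoa2, between Fcgr2a and Fcer1g, each had at most 1 read summed over a group. Sdhc, a subunit of mitochondrial succinate dehydrogenase in the same interval, averaged 83.6 FPKM with PIO and 78.8 FPKM in control (limma adjusted p = 0.464).

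Other immunoglobulin receptors were few. Of 14 in the table, 6 were listed at 0 and 4 reached the minimum for testing. None of the 4 passed (1 higher with PIO, 3 lower, none with groups apart). Beside Fcrla these were Fcmr, the IgM receptor gene (41.7 ± 2.18 FPKM with PIO and 43.2 ± 1.96 FPKM in control, SD, n = 3 each; log2 fold change -0.05), Trim21, a cytosolic antibody receptor (8.66 FPKM with PIO and 8.67 FPKM in control), and Lgals3, galectin-3, which binds IgE (348 FPKM with PIO and 348 FPKM in control), with limma adjusted p values of 0.705, 0.998 and 0.998. The low-affinity IgE receptor gene Fcer2 was listed at 0, and the high-affinity IgG receptor gene Fcgr1a had 0 reads with PIO and 1 read in control. In the MS4A family, to which the beta chain belongs, 10 of 17 genes were listed at 0. Ms4a6a was the only one tested beside Ms4a2, at 22.3 ± 0.637 FPKM with PIO and 23.7 ± 0.698 FPKM in control (SD, n = 3 each; log2 fold change -0.09, limma adjusted p = 0.445).

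Fcer1g stood far above the other adaptors that carry ITAM motifs. Tyrobp (DAP12) had 1, 0 and 1 reads in PIO replicates 1 to 3 and 0 in each control library, Cd247 (the zeta chain) had 1 read with PIO and 0 in control, and Cd79b, Cd3d and Nfam1 were listed at 0. Of 9 ITAM and related adaptors 2 were tested and neither passed. These were Cd3e (0.699 ± 0.204 FPKM with PIO and 1.01 ± 0.161 FPKM in control, SD, n = 3 each; log2 fold change -0.35, limma adjusted p = 0.419) and Hcst (DAP10), which signals through a PI3-kinase motif and has no ITAM (33.5 ± 1.35 FPKM with PIO and 31.5 ± 3.89 FPKM in control; log2 fold change 0.10, limma adjusted p = 0.647). Of 8 other receptors known to pair with the gamma chain, none reached the minimum for testing. The most reads among them were 13 with PIO and 12 in control, for Lilra5.

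**Figure D4:**
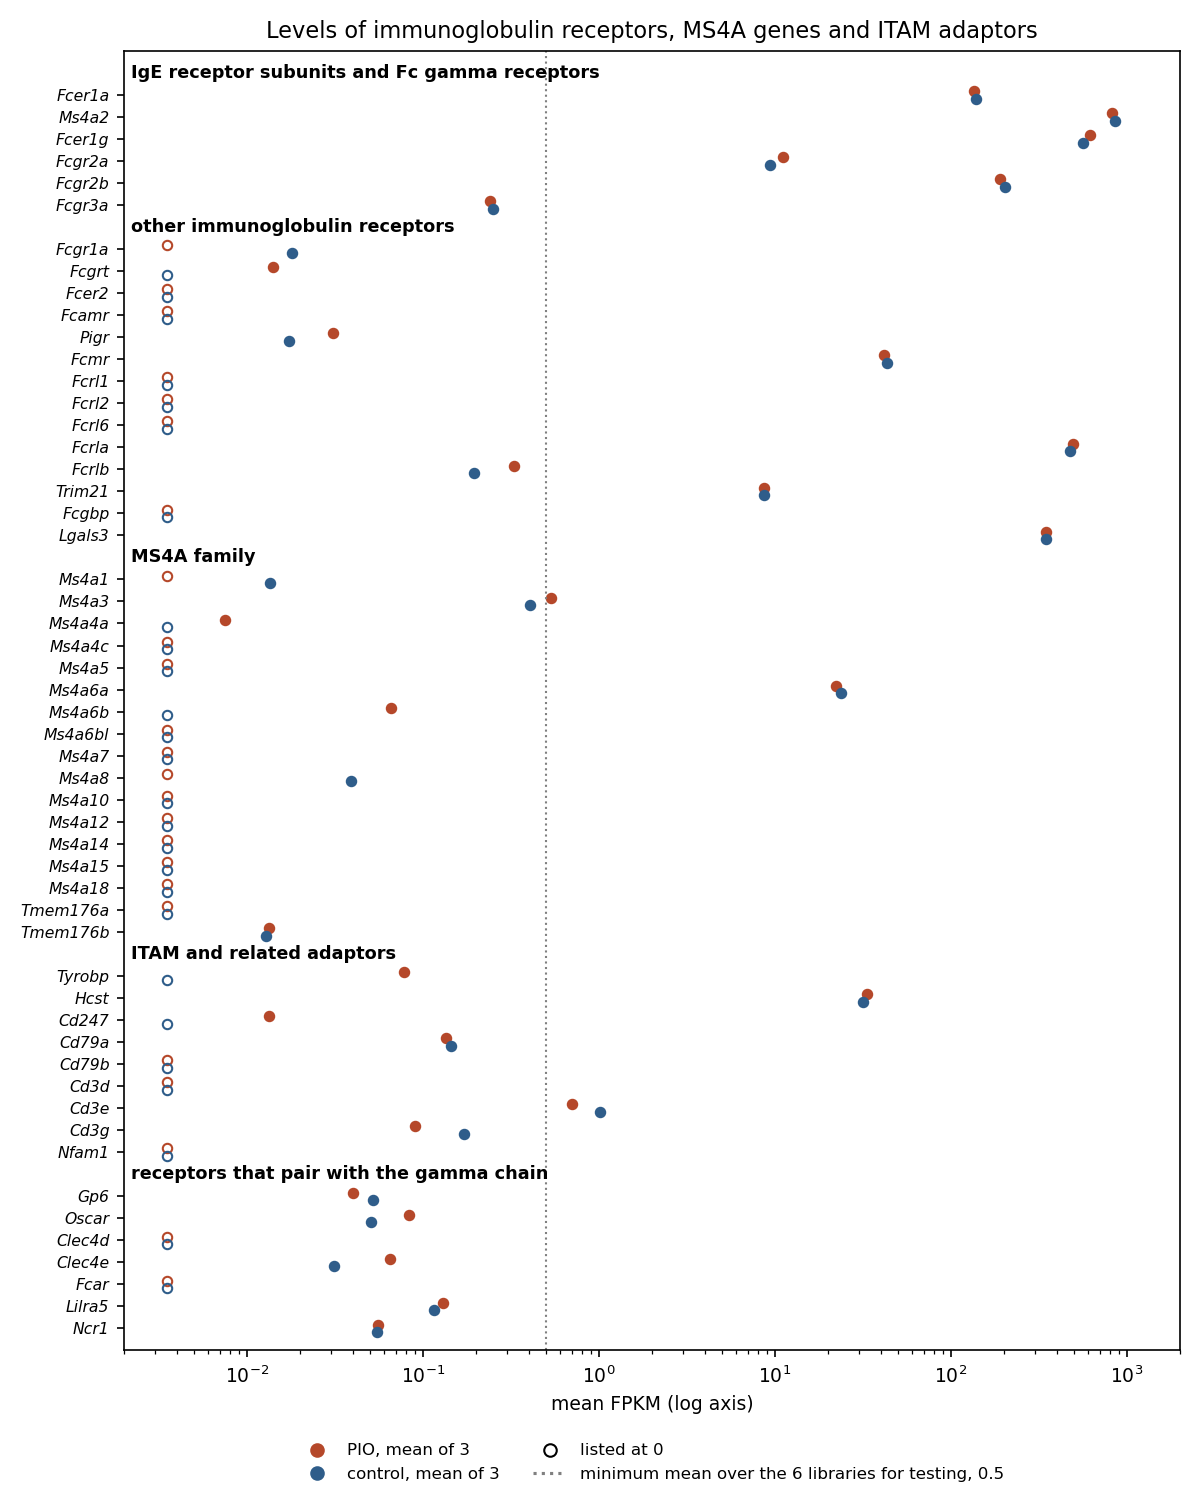
Mean FPKM on a log axis for the 6 receptor genes, other immunoglobulin receptors, the MS4A family, ITAM and related adaptors and receptors that pair with the gamma chain, with PIO and control as separate points; open points mark genes listed at 0. Ms4a2, Fcer1g, Fcrla, Lgals3, Fcgr2b and Fcer1a lie above 100 FPKM, and most other genes lie below the dotted line at 0.5 FPKM, the minimum mean for testing.

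The first signalling steps below the receptor were well measured. Of 29 kinases, adaptors, phosphatases and lipases, 26 were tested and none passed, with 15 higher with PIO and 11 lower. The PIO and control values did not overlap for 8 of the 26, against 18.5% of all genes tested. Their median log2 fold change was 0.01, against 0.009 over all genes tested. Among those with the smallest p were Lat, the transmembrane adaptor that Syk phosphorylates (209 ± 3.06 FPKM with PIO and 191 ± 9.82 FPKM in control, SD, n = 3 each; log2 fold change 0.13, limma adjusted p = 0.339), Cbl and Pag1. The ubiquitin ligase gene Cbl averaged 10.8 ± 0.898 FPKM with PIO and 12.3 ± 0.491 FPKM in control, with the groups apart (log2 fold change -0.18, limma adjusted p = 0.37). Pag1, an adaptor that holds the kinase Csk at the membrane, had 5.85 ± 1.19 FPKM with PIO and 7.16 ± 0.592 FPKM in control, with overlap (-0.29, limma adjusted p = 0.419). Lyn, which phosphorylates the ITAMs, averaged 65.9 FPKM with PIO and 67.2 FPKM in control, and Syk, which binds them, 16.5 FPKM with PIO and 15.5 FPKM in control. Inpp5d, the SHIP1 gene that serves Fcgr2b, averaged 55.5 FPKM with PIO and 55.2 FPKM in control. Under TPM scaling the median of the list was -0.018, and that of all genes tested moved to -0.018 as well.

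Of 16 transcription factors that act on promoters of this receptor or belong with those that do, 14 were tested and none passed, with 5 higher with PIO, 9 lower. The PIO and control values did not overlap for 3 of the 14, against 18.5% of all genes tested. Their median log2 fold change was -0.05, against 0.009 over all genes tested. Mitf, a master regulator of mast cells, had 27.2, 26.7 and 26.4 FPKM in PIO replicates 1 to 3, against 29.4, 31.3 and 32.4 FPKM in control replicates 1 to 3, so the groups were apart (log2 fold change -0.21, limma adjusted p = 0.27). Elf1, an ETS factor, had 17.9, 16.9 and 16.0 FPKM with PIO, against 18.6, 20.1 and 19.5 FPKM in control, also apart (-0.19, limma adjusted p = 0.304). Zfpm1 (FOG-1), a cofactor of GATA proteins, had 3.35, 3.34 and 3.57 FPKM with PIO, against 2.95, 2.70 and 2.85 FPKM in control (0.23, limma adjusted p = 0.34). Yy1 averaged 23.9 ± 2.79 FPKM with PIO and 26.1 ± 0.807 FPKM in control (SD, n = 3 each; -0.13, limma adjusted p = 0.521).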

How the data were processed

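RNA-seq libraries were made with a stranded mRNA kit from TRIzol-extracted RNA of 6 RBL-2H3 samples, per the labels' protocols. The authors deposited 1 FPKM value per gene and library. The submitters' processing notes name Trimmomatic 0.36, FastQC 0.11.5 and HISAT2 2.2.1.0, besides BWA (0.7.5a), SAMtools (1.3.1), HTSeq, Cufflinks and DESeq, without roles in the sources used here. They also name a human build, GRCh38, while gene names and GeneIDs are those of the rat, so the build behind the values is unclear. Sequences and gene order come from RefSeq tables of the rat assembly GRCr8.

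From these values, whole reads and gene lengths were recovered for 15427 of 15429 genes above 0 (99.99%, tolerance 1e-04 of a read, wider for large numbers). The smallest length that made all values of a gene whole was taken. Reads given for genes with very few of them are therefore the smallest counts that fit, and could be a multiple of these. Reads carry no molecular identifiers, so counting error covers counting only. A gene entered the test if its mean was 0.5 FPKM or more. The test was limma 3.58.1 in R 4.3.3 on log2(FPKM + 0.5), a scale that shrinks differences of low genes, with a variance trend, no covariate beside the group and two-sided p-values, adjusted by Benjamini-Hochberg over all 10410 genes tested at a threshold of 0.05. Ratios were compared by exact permutation tests on log2 ratios. The code, also run in Python 3.11.15 with scipy 1.17.1, was tested on simulated data.

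The 6 genes, the lists, the tests and the alternatives were chosen with earlier results of these data known, so a list is described by counts and its median. Named genes are the 6 receptor genes, up to 4 tested genes with the smallest p in each list, and the 3 nearest patterns for each IgE receptor subunit, of which 1 list gene is not reported here. Other genes (neighbours on chromosome 13, copies of Fcgr2a, untested genes, markers, and Lyn, Syk, Inpp5d, Gata1 and Gata2) were named by position or after their values were seen. As alternatives, the pseudocount was set to 0.1 and 1, the filter was dropped or set to a minimum of 1 or 5 FPKM, and libraries were scaled by TPM, quantiles or the median of ratios. Further ones were other variance models, sample weights, a replicate block, limma-voom on the recovered reads, and each library left out. A correction for gene length (lowess against log2 length, span 0.3) and the adding of copies to Fcgr2a were chosen after seeing the data.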

Additional observations from a re-analysis of the deposited data

How the results depend on the processing

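No gene of the 5 tested and none of the 6 ratios turned its direction, and no gene passed the adjusted threshold, under any alternative run. The count of genes past the threshold was 4, and it was 1 without a filter on low values (1513 genes at an unadjusted p under 0.05, against 1302 in the test as reported), 2 without a variance trend, 7 with the robust variance fit and 7 with limma-voom on the recovered reads. With each library left out it was 3 to 4, and the cause of these shifts was not tested. Leaving out each library moved the log2 fold change of Fcer1a between -0.048 and -0.012, Ms4a2 between -0.083 and -0.047, Fcer1g between 0.073 and 0.19, Fcgr2a between 0.21 and 0.25, and Fcgr2b between -0.14 and -0.073. Replicate numbers are shared between the groups, but same-numbered libraries correlated by -0.0682, 0.0277 and 0.0776 in their deviations from the group means, so the numbers were not taken as pairs. With the replicate number as a block, 3 genes passed, the lowest limma adjusted p among the 5 was 0.383, and their fold changes stayed as they were. The log2 difference of the ratio of Fcgr2a plus Fcgr3a to Fcgr2b lay between 0.31 and 0.38 under its alternatives. Adding the copies of Fcgr2a was not among them, for this or any other ratio. Ratios of recovered reads per base equal the FPKM ratios by construction, and ratios with Fcgr3a have no value under the length correction because that gene was below the filter. Depth limits Fcgr3a, with 2 to 8 reads per library, and the exact tests of 3 against 3 libraries cannot go below p = 0.1.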

Other observations

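The values here were chosen after they were seen. Fyn, Gata1 and Gata2 belong to the lists counted above. Fyn, a Src-family kinase gene known to act beside Lyn in mouse mast cells, had 2, 1 and 0 reads in PIO replicates 1 to 3 and 4, 0 and 1 reads in control replicates 1 to 3. Gata1 differed between libraries of the same group, at 3.90, 7.24 and 3.74 FPKM in PIO replicates 1 to 3 and 10.0, 3.39 and 8.51 FPKM in control replicates 1 to 3, whereas Gata2 stood at 512 ± 11.0 FPKM with PIO and 502 ± 7.58 FPKM in control (SD, n = 3 each). Among markers of other blood cells, the platelet factor gene Pf4 averaged 2729 FPKM with PIO and 2586 FPKM in control and the granule gene Nkg7 348 FPKM with PIO and 324 FPKM in control. Of the other platelet markers, Itga2b averaged 10.8 FPKM with PIO and 11.3 FPKM in control, Gp6 0.0401 FPKM with PIO and 0.0523 FPKM in control, and Gp9 0.0823 FPKM with PIO and 0.122 FPKM in control. Of the other T and NK cell markers, Klrk1 averaged 1.02 FPKM with PIO and 0.981 FPKM in control, Cd3e 0.699 FPKM with PIO and 1.01 FPKM in control, and Cd3g, Cd247 and Ncr1 at most 0.171 FPKM in either group, while Cd3d was listed at 0. Summed neutrophil, eosinophil and B cell markers reached at most 0.653 FPKM in a library.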
